A study of Homo sapiens with 6 samples.

Results

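G0S2, CIDEA and ME1 are genes of fat storage and fat synthesis whose promoters carried more methylated cytosine in reset than in conventional human embryonic stem cells, against a loss over most of the genome. They were chosen by that measured difference, as 3 of 19819 protein-coding genes with an annotated canonical transcript on chromosomes 1 to 22 and X. The rise of the promoter level is therefore given here as a description with no test. The DNA came from the established human embryonic stem cell line H9 and was sequenced genome-wide after bisulfite treatment, in 3 conventional and 3 reset libraries. Conventional cells were grown in medium with 20% KSR, a serum replacement, and 10 ng/ml bFGF. Reset cells descended from H9 cells transfected with NANOG and KLF2, expressed under 1 μM doxycycline (DOX) for around 2 weeks. DOX was then withdrawn and the cells were kept in t2iL+Gö, which combines the GSK3 inhibitor CHIR99021 (1 μM), the MEK inhibitor PD0325901 (1 μM), human LIF and Gö6983 (5 μM), an inhibitor of protein kinase C. Both kinds of cell were maintained on mouse embryonic fibroblast feeders at 5% oxygen. The transgenes, the medium and the resetting went together, so their parts in a difference cannot be told apart. The study calls the libraries biological replicates, but whether the reset libraries came from separate resettings is not given in the sources used here. The p-values set a difference against the spread between these libraries at each feature. This spread is drawn toward a value common to all features and kept at or above the counting error of the calls. The p-values therefore depend on the number of calls too, and very small values do not come from the spread of 3 against 3 libraries alone.

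The genes act at different points of the handling of triglyceride, the fat that cells keep in lipid droplets. G0S2 encodes a small inhibitor of PNPLA2, the lipase that starts the breakdown of stored triglyceride. CIDEA encodes a protein of the droplet surface that helps small droplets fuse into larger ones and is known from brown fat. ME1 encodes the malic enzyme of the cytosol, which turns malate into pyruvate and yields NADPH, the reducing agent that fatty acid synthesis consumes. Methylation of cytosine at CpG sites is usually low at CpG-rich promoters and high in gene bodies and between genes. No expression was measured in these files, so the levels say nothing of how much of each gene was transcribed.

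G0S2 (ENSG00000123689) lies on the plus strand of chromosome 1 (GRCh37, chr1:209848757-209849735), spans 979 bp and has 2 exons. It sits wholly inside HSD11B1-AS1, a long noncoding RNA gene on the opposite strand (chr1:209834701-209897470). CIDEA (ENSG00000176194) lies on the plus strand of chromosome 18 (chr18:12254360-12277594), spans 23235 bp and has 5 exons. ME1 (ENSG00000065833) lies on the minus strand of chromosome 6 (chr6:83920121-84140770), spans 220650 bp and has 14 exons. The promoter was set at 1000 bp before to 500 bp after the start of the canonical transcript. The downstream part of the promoter took in the first exon of each gene and, in G0S2, the first intron and the start of exon 2, where its coding sequence begins.

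The 300 bp just upstream of each start are shown because the rise of methylation in reset cells lay around the start, with the CpGs, the sites at which methylation was counted, in capitals. Each is read 5′ to 3′ in the direction of its gene from GRCh37, for G0S2 at chr1:209848457-209848756 (plus strand), for CIDEA at chr18:12254060-12254359 (plus strand) and for ME1 at chr6:84140771-84141070 (minus strand).
G0S2: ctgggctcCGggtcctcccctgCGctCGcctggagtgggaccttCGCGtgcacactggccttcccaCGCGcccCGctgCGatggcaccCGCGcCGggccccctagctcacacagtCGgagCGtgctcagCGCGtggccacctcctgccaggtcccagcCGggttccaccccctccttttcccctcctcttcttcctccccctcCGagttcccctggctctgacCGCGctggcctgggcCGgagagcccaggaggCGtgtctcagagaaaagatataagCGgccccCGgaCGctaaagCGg
CIDEA: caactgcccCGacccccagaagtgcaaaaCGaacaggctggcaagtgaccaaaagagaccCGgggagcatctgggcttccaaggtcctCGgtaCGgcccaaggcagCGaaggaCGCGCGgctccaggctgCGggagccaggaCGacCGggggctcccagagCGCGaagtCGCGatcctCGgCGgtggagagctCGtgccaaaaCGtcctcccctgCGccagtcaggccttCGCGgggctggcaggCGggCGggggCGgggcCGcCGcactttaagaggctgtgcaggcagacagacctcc
ME1: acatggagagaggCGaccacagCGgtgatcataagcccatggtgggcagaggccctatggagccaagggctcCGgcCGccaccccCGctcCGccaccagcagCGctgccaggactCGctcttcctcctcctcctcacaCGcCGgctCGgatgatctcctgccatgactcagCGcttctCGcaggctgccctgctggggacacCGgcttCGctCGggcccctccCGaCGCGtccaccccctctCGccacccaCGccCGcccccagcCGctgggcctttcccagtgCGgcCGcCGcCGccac
These stretches held 26 CpGs in G0S2, 28 in CIDEA and 27 in ME1. They were searched on both strands for the letters of 4 promoter motifs. The GC box GGGCGG, found in the same window of 60.9% of 19818 promoters, occurred in CIDEA at 54 and 48 bp upstream of the start (first bases at -54 and -48) and in ME1 at -46, and did not occur in G0S2. The TATA box TATAAA, held by 11.0% of promoters, the CCAAT box CCAAT, held by 37.8%, and the E-box CACGTG, held by 8.89%, were found in none of the 3 windows. A match is a description of the letters only.

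The libraries held 92023996 to 98004161 calls (conventional) and 70329213 to 80199615 calls (reset), or 2.51 to 3.49 calls for each of 27999103 CpGs, where a call is 1 read of 1 cytosine as methylated or not. Over all calls the methylation level, the percentage of calls that were methylated, was 84.3 to 84.6% in the conventional libraries and 29.5 to 30.3% in the reset ones. Single promoters were tested with a quasi-binomial model of the calls (dispersion squeezed with limma, Benjamini-Hochberg adjusted p under 0.05), which was possible for 19300 promoters with at least 10 calls in every library. It called 67.4% of promoters lower and 3.98% higher in reset cells. These shares depend on the promoter bounds. With 500 bp on both sides of the start, 7489 of 18916 promoters were called lower and 829 higher, and with 2000 bp before and 500 bp after it, 17267 of 19485 were called lower and 474 higher. In 4.63% of promoters every reset library lay above every conventional library. With 3 libraries against 3, an exact permutation test of a single value cannot give a p below 0.1.

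The promoters of G0S2, CIDEA and ME1 rose from low levels to between 54.9 and 59.6% on average, and in each of them every reset library lay above every conventional library. This separation follows from how they were chosen, and nothing is read from it beside the 4.63% of all promoters. Ordered by the size of the rise, they stood at positions 7, 9 and 13 of the 19300 promoters. The levels are means over many DNA molecules, so a level near the middle does not tell methylation of some cells or alleles from partial methylation of each.

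At the G0S2 promoter, conventional libraries 1, 2 and 3 had levels of 4.73, 5.26 and 7.81%, on 169, 209 and 128 calls. Reset libraries 1, 2 and 3 had 53.7, 64.1 and 54.3%, on 162, 103 and 105 calls. The mean was 5.94% ± 1.65 (SD, n = 3) in conventional and 57.4% ± 5.83 (SD, n = 3) in reset cells, a difference of 51.4 percentage points. The reset libraries were close to each other. Their Wilson 95% intervals (46.0 to 61.2, 54.5 to 72.7 and 44.8 to 63.5%) overlapped, while the highest conventional interval ended at 13.8%. Reads amplified by PCR are not independent molecules, and 1 read gives calls at several neighbouring CpGs. Such intervals treat all calls as independent, so they cover counting error only and are too narrow.

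At the CIDEA promoter the conventional libraries had levels of 6.11, 4.60 and 4.06%, on 262, 174 and 197 calls. The reset libraries had 50, 53.2 and 61.4%, on 226, 237 and 210 calls. The mean went from 4.92% ± 1.06 to 54.9% ± 5.90 (SD, n = 3 each), a difference of 49.9 points. CIDEA had the lowest mean conventional level of the 3 genes and the most reset calls over its 3 libraries.

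At the ME1 promoter the conventional libraries had levels of 23.1, 11.2 and 11.3%, on 147, 188 and 151 calls. The reset libraries had 76.1, 61.4 and 41.1%, on 67, 210 and 107 calls. The mean went from 15.2% ± 6.88 to 59.6% ± 17.6 (SD, n = 3 each), a difference of 44.4 points. The reset libraries stood further apart here than at the other genes. The Wilson intervals of reset library 1 (64.7 to 84.7%) and reset library 3 (32.3 to 50.6%) did not overlap. Calls that share a read are not independent, so this does not establish a difference between these libraries. Reset library 1 had the thinnest coverage of any library at any of these promoters, 0.263 of its own genome-wide calls per CpG. The difference was 36.1 points without reset library 1 and 53.6 points without reset library 3.

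**Figure D1:**
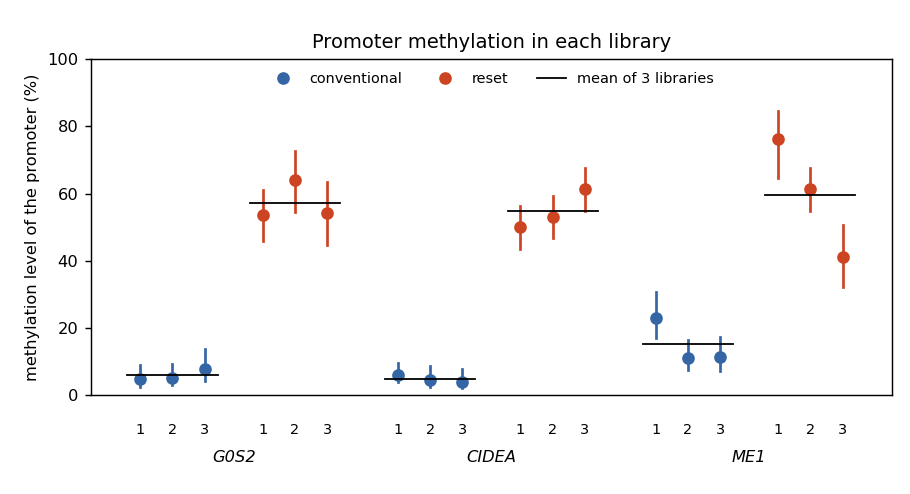
Methylation level (%) of the promoters of G0S2, CIDEA and ME1 in each library, with conventional libraries 1 to 3 in blue and reset libraries 1 to 3 in red, Wilson 95% intervals as vertical lines and the mean of 3 libraries as horizontal lines. The reset libraries sit between 41.1 and 76.1% and the conventional libraries between 4.06 and 23.1%, with the widest spread at ME1.

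The rise was present on both strands of the DNA and on both sides of the start. Read from the plus strand alone, the G0S2 promoter went from 3.93% ± 4.47 to 48.8% ± 8.70, and from the minus strand alone from 7.21% ± 0.363 to 64.3% ± 10.8 (SD, n = 3). CIDEA went from 3.94% ± 1.08 to 56.0% ± 9.0 on the plus and from 5.85% ± 1.99 to 53.9% ± 4.88 on the minus strand. ME1 went from 16.3% ± 8.87 to 59.1% ± 19.1 on the plus and from 12.7% ± 3.27 to 59.1% ± 14.3 on the minus strand. These are the calls that chose the genes, divided by strand, and are no independent support of the rise.

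Upstream of the start, the 1000 bp of the promoter went from 10.2% ± 4.90 to 64.8% ± 7.24 in G0S2, from 6.61% ± 2.05 to 48.2% ± 9.11 in CIDEA and from 24.0% ± 10.9 to 60.9% ± 9.28 in ME1. Downstream, the 500 bp after the start went from 2.26% ± 1.15 to 51.8% ± 8.24 in G0S2 and from 2.47% ± 1.69 to 60.5% ± 9.62 in CIDEA. In ME1 they went from 3.86% ± 1.82 to 63.8% ± 34.7, with reset libraries 1, 2 and 3 at 100.0% (15 calls), 60.5% (119 calls) and 30.8% (52 calls). In every conventional library the upstream part was the more methylated in each gene. In reset cells the levels of the parts overlapped between libraries in all 3 genes. The upstream part was the more methylated in every reset library at G0S2, while the order varied between libraries at CIDEA and ME1.

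Profiles in steps of 200 bp placed the rise at a short stretch around the start, inside surroundings that lost methylation. A step was used where each group had at least 10 calls over its 3 libraries. G0S2 had 18 such steps, of which 7 were higher and 11 lower in reset cells. Steps higher by over 20 points ran from 400 bp upstream (-400) to 800 bp downstream, and the largest rise, from 0 to 64.5%, was in the 200 bp just upstream of the start. CIDEA had 27 steps, 12 higher and 15 lower, and its rise of over 20 points ran from -1000 to 800 bp, with the largest, from 0 to 69.9%, in the first 200 bp after the start. ME1 had 21 steps, 9 higher and 12 lower. Its rise of over 20 points ran from -600 to 600 bp, with the largest, from 3.33 to 62.7%, between 200 and 400 bp after the start, where reset library 1 had only 2 calls. Every reset library lay above every conventional library in 5 steps of G0S2, 9 of CIDEA and 5 of ME1, and below in 9, 8 and 9 steps, while the libraries overlapped in 4, 9 and 6. In CIDEA and ME1 1 further step each had a library with no call. The steps above lie mostly within the promoters that chose the genes and are a description, and some rest on few calls, such as 1 call of reset library 3 between -600 and -400 bp at CIDEA.

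The reset libraries did not rise evenly along the stretch. In the 200 bp before the ME1 start the conventional libraries were all at 0 and the reset libraries at 55.6, 72.4 and 10.0%, on 18, 29 and 10 calls. In the 200 bp after it the conventional libraries were again at 0 and the reset libraries at 100.0, 60.0 and 6.90%, on 10, 65 and 29 calls. The low ME1 promoter level of reset library 3 therefore came with low levels next to the start, while it had 61.1% on 18 calls between 200 and 400 bp. At CIDEA the 200 bp before the start had 9.68, 53.7 and 53.6% in the reset libraries, on 31, 41 and 28 calls, and the 200 bp after it had 71.7, 33.3 and 97.0%, on 53, 27 and 33 calls. Which library was lowest thus changed from 1 step to the next. At G0S2 the step before the start had 52.2, 84.6 and 82.4%, on 46, 13 and 17 calls.

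The steps just before and just after each start, with no methylated call in conventional cells, rested on 60 to 90 calls over the 3 conventional libraries, which would allow levels of up to 3.33 to 5.00% if the calls were independent. Neighbouring CpGs are read on the same molecules, so the true limits are higher.

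**Figure D2:**
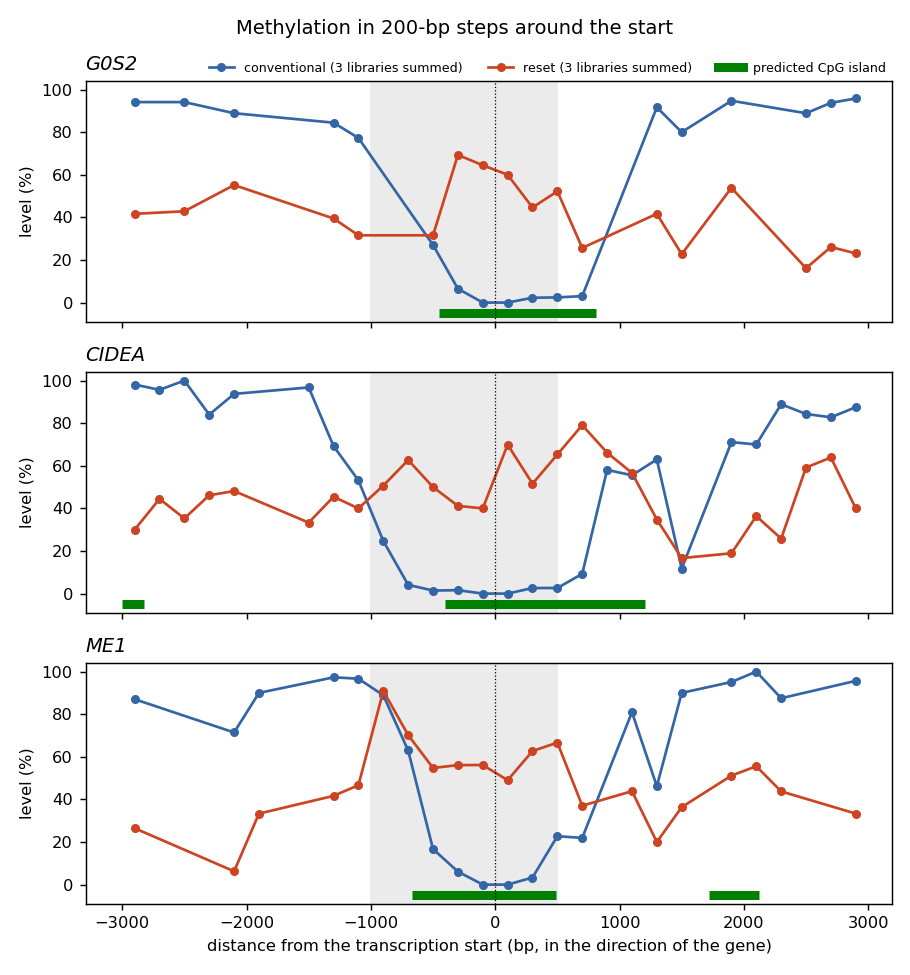
Methylation level (%) in steps of 200 bp against distance from the transcription start (bp, in the direction of the gene), with calls summed over 3 conventional (blue) or 3 reset (red) libraries, the promoter shaded and predicted CpG islands in green; only steps with at least 10 calls in each group are drawn. The conventional profile falls to 0 at the start of all 3 genes, where the reset profile stands at 40 to 69.9%, and the lines cross on both sides.

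A predicted CpG island, a stretch rich in G, C and CpG, held the start of each gene and overlapped the raised stretch. At CIDEA the overlap was partial. Its rise began upstream of the island, at -1000 bp, and the island went on past the end of the rise, with 58.1 and 66.2% between 800 and 1000 bp in conventional and reset cells and 55.6 and 56.7% between 1000 and 1200 bp, where the libraries overlapped. The G0S2 island was 1269 bp long (-454 to 814 bp from the start, 82 CpGs) and went from 2.96% ± 0.873 to 56.4% ± 7.17 (SD, n = 3). The CIDEA island was 1607 bp long (-405 to 1201 bp, 118 CpGs) and went from 15.6% ± 4.23 to 58.3% ± 10.3. The ME1 island was 1160 bp long (-670 to 489 bp, 85 CpGs) and went from 8.42% ± 2.48 to 58.8% ± 21.7. Islands that did not hold the start were at high levels in conventional cells and lower in reset cells. A 253-bp island upstream of CIDEA (-3075 to -2823 bp from the start) went from 96.0% ± 3.85 to 30.3% ± 17.1, and a 397-bp island 1722 to 2118 bp inside ME1 went from 97.0% ± 2.72 to 56.3% ± 19.9. Both are borderline and held only 10 and 18 CpGs. Over its whole length the CIDEA stretch had an observed to expected CpG ratio of 0.599 and the ME1 stretch 49.6% GC. These lie just under the limits set for single windows.

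The CpG content of the promoters varied among the 3 genes. The whole promoter held 71 CpGs in G0S2, 106 in CIDEA and 91 in ME1, at percentiles 40.5, 71.2 and 58.5 of the promoters tested. The GC content was 57.7, 65.1 and 62.5%, at percentiles 51.4, 83.0 and 73.6. The observed to expected CpG ratio was 0.578 in G0S2, 0.670 in CIDEA and 0.629 in ME1, at percentiles 35.1, 48.5 and 41.5 of the promoters tested. Coverage was below the genome-wide mean in every library, at 0.263 to 0.880 of the library's calls per CpG.

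At single CpGs, those with at least 5 calls in each group (summed over its libraries) were compared as a description. In G0S2 29 of 71 CpGs had this depth, and 28 were higher in reset cells, 1 was equal and 0 were lower, with a median difference of 57.1 points. In CIDEA 47 of 106 CpGs had it, and 43 were higher, 1 lower and 3 equal, with a median difference of 55.0 points. In ME1 20 of 91 CpGs had it, and 17 were higher, 2 lower and 1 equal, with a median difference of 43.9 points. The ME1 CpGs that were not higher lay over 600 bp upstream of the start, in the stretch that was methylated in conventional cells too.

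Most of these CpGs had no methylated call in conventional cells, 23 of 29 in G0S2, 32 of 47 in CIDEA and 11 of 20 in ME1. A level of 50% or more in reset cells was reached by 21 CpGs in G0S2, 32 in CIDEA and 15 in ME1, against 1, 1 and 4 in conventional cells. Neighbouring CpGs are read on the same molecules and are not independent, and 5 calls place a single site only roughly.

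**Figure D3:**
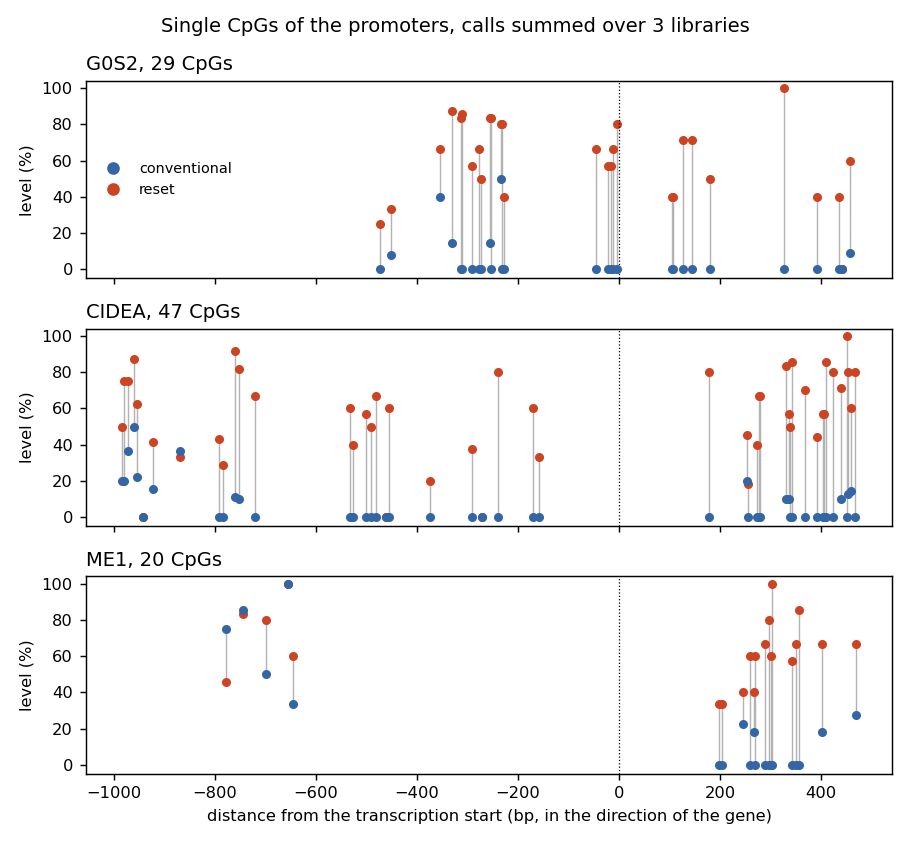
Methylation level (%) of single CpGs of the promoters against distance from the transcription start (bp, in the direction of the gene), with conventional cells in blue and reset cells in red, calls summed over 3 libraries and grey lines joining the values of a CpG; only CpGs with at least 5 calls in each group are drawn. Lines run upward at 28 of 29 CpGs in G0S2, 43 of 47 in CIDEA and 17 of 20 in ME1, with 23, 32 and 11 CpGs at 0 in conventional cells. No CpG of this depth lies between -158 and 179 bp at CIDEA or between -646 and 198 bp at ME1.

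Over the whole gene body, CIDEA and ME1 were less methylated in reset cells, and the short body of G0S2 was more methylated. A body was taken from 500 bp after the start to the end of the transcript and shares no CpG with the promoter. Of 19153 bodies tested, 97.8% were called lower in reset cells, and in 1.16% every reset library lay above every conventional library. The CIDEA body had levels of 79.1, 82.8 and 81.7% in the conventional and 44.9, 39.3 and 45.0% in the reset libraries, on 1201 to 1413 calls each. It went from 81.2% ± 1.93 to 43.1% ± 3.26 (SD, n = 3), a difference of -38.1 points (quasi-binomial model with limma, adjusted p = 4.5e-17). The ME1 body had 93.2, 92.8 and 91.9% against 17, 17.7 and 19.7%, on 3445 to 5028 calls each. It went from 92.6% ± 0.662 to 18.1% ± 1.38, a difference of -74.5 points (adjusted p = 5.5e-29 in the same model).

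Both bodies were called lower, as 97.8% of all bodies were, but they kept different shares of their conventional level. The CIDEA body kept 53.1% of it and its reset level stood at percentile 91.7 of all bodies, while the ME1 body kept 19.6% and stood at percentile 11.5. In 5 equal parts of the CIDEA body beyond 3000 bp, 4 had 89.8 to 91.6% in conventional and 44.7 to 49.1% in reset cells, and the fourth from the start had 61.6% ± 3.46 and 23.9% ± 4.36. The parts of ME1 had 92.2 to 93.6% in conventional and 12 to 22% in reset cells. Beyond 3000 bp the level was thus lower in reset cells in every part of both bodies.

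The G0S2 body was the short remainder of a 979-bp gene and belonged largely to the same CpG island as its promoter, so its values are given with no test. The conventional libraries had 13.3, 4.26 and 0%, on 15, 47 and 15 calls, and the reset libraries had 41.7, 65.0 and 37.8%, on 24, 20 and 37 calls. The upper limit that 0 of 15 calls would allow is 20.0% if the calls were independent, and it is higher because they lie close together on shared reads. The mean went from 5.86% ± 6.81 to 48.2% ± 14.7 (SD, n = 3). From the end of the gene to 3000 bp after the start the level went the other way, from 89.7% ± 7.05 to 32.1% ± 15.2.

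The flanks 3000 to 1000 bp upstream fell in all 3 genes, from 85.7% ± 1.40 to 42.4% ± 8.86 at G0S2, from 88.2% ± 2.4 to 39.5% ± 15.7 at CIDEA and from 90.5% ± 1.25 to 32.3% ± 5.4 at ME1. Between 500 and 3000 bp downstream, ME1 went from 70.1% ± 4.07 to 43.1% ± 7.43. CIDEA had 56.4% ± 1.56 in conventional and 55.3% ± 12.1 in reset cells, a difference smaller than the spread between the reset libraries. That CIDEA stretch holds a step at 600 to 800 bp that was higher in reset cells, from 9.26 to 79.1%, and steps further on that were lower. Over the 3 to 50 kb on both sides of the start, the level went from 88.8% ± 0.333 to 32.2% ± 1.68 around G0S2, from 80.6% ± 0.569 to 39.7% ± 0.231 around CIDEA and from 92.7% ± 0.105 to 31.8% ± 2.81 around ME1. In reset cells the promoters were thus more methylated than their surroundings, and in conventional cells less, in every library. The surroundings of CIDEA and ME1 share CpGs with their own gene bodies, so body and surroundings are not separate regions there.

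**Figure D4:**
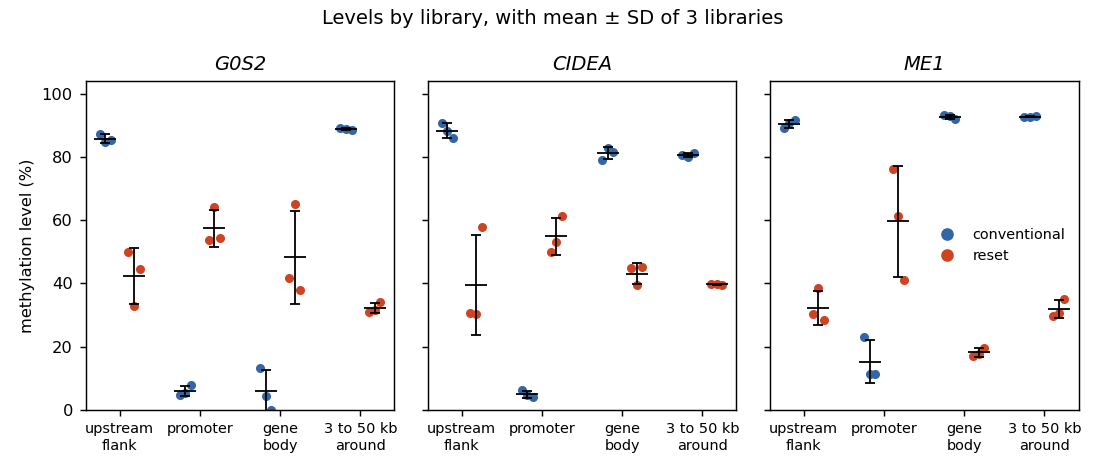
Methylation level (%) of the upstream flank (3000 to 1000 bp upstream), the promoter, the gene body and the surroundings (3 to 50 kb on both sides of the start) of G0S2, CIDEA and ME1, as points per library with the mean ± SD of 3 libraries in black, conventional in blue and reset in red. Blue lies above red in the flanks and surroundings and below red at the promoters, and at the body blue lies above red in CIDEA and ME1 and below it in G0S2. At CIDEA and ME1 the surroundings share CpGs with the gene body.

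The nearest protein-coding starts on each side were not called higher. For G0S2 these were LAMB3, a laminin chain, 22987 bp away, at 80.6% ± 4.39 and 14.3% ± 8.35 (adjusted p = 2.1e-06, quasi-binomial model with limma, as for all single promoters named from here on), and HSD11B1, which makes active cortisol, 29434 bp away, at 92.4% ± 2.58 and 17.1% ± 0.910 (adjusted p = 1.2e-07). Both were called lower. For CIDEA, ANKRD62 at 160518 bp went from 87.3% ± 6.38 to 53.3% ± 1.48 (adjusted p = 7.5e-06), and TUBB6, a beta tubulin, at 53880 bp had 1.66% ± 0.816 and 1.31% ± 0.770 (adjusted p = 0.54). For ME1, RWDD2A at 237694 bp had 1.92% ± 0.532 and 0.918% ± 0.586 (adjusted p = 0.18), and PRSS35, a serine protease-like gene, at 81483 bp went from 17.7% ± 6.34 to 3.73% ± 2.83 (adjusted p = 0.0031). None of the 6 was called higher, which beside the 3.98% of all promoters says little. The calls lower are to be read beside the 67.4% of all promoters called lower.

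The other genes of the CIDE and malic enzyme families had no promoter called higher, 0 of 4, which beside the 3.98% of all promoters says little. Of the other genes of the CIDE family, CIDEB went from 81.3% ± 6.30 to 34.9% ± 5.89 (adjusted p = 7.9e-05) and CIDEC, a droplet protein of white fat, from 92.8% ± 4.39 to 27.9% ± 3.57 (adjusted p = 3.7e-07). Of the malic enzymes of the mitochondrion, ME3 went from 27.8% ± 3.59 to 17.3% ± 4.0 (adjusted p = 0.015), and ME2 had 2.71% ± 0.831 and 1.45% ± 1.02 (adjusted p = 0.22). PNPLA2, the lipase that G0S2 inhibits, went from 50.7% ± 5.57 to 34.1% ± 7.31 (adjusted p = 0.0053), and ABHD5, the activator of the same lipase, had 0.579% ± 0.692 and 1.24% ± 0.265 (adjusted p = 0.21). PNPLA2 and ABHD5 were named after their values were seen.

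Over 87 other genes of lipid metabolism, set down in 8 groups by role, 3 promoters were called higher, 55 lower and 29 in neither direction. The shares, 3.45% higher and 63.2% lower, stood beside 3.98 and 67.4% of all promoters, and the median difference of -7.64 points beside -9.59 over all. With 500 bp on both sides of the start as promoter, 27 listed promoters were called lower and 4 higher, beside 7489 lower and 829 higher of 18916 promoters in all. With 2000 bp before and 500 bp after it, 78 listed promoters were called lower and 2 higher, beside 17267 lower and 474 higher of 19485 in all. The 3 higher promoters had smaller rises than G0S2, CIDEA or ME1, which follows from the choice of those genes by their rise. BSCL2, which encodes seipin, a protein of droplet formation, went from 13.7% ± 2.64 to 35.9% ± 8.26 (adjusted p = 0.00064). CPT1C, the carnitine palmitoyltransferase known from neurons, went from 1.96% ± 1.45 to 24.1% ± 1.60 (adjusted p = 9.1e-07). AGPAT2, which adds a fatty acid in triglyceride synthesis, went from 6.87% ± 4.22 to 17% ± 3.04 (adjusted p = 0.0036).

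The counts of the single groups are to be read beside the 67.4% of all promoters called lower and the 3.98% called higher, and no group was tested against the rest. Of 12 lipid droplet proteins, 10 were called lower and 1 higher, and the falls included HSD17B13, from 94.8% ± 4.67 to 21.5% ± 3.54 (adjusted p = 1.4e-06). Of 7 genes listed under lipolysis, 5 were called lower, among them LIPE, the hormone-sensitive lipase, from 92.8% ± 1.52 to 29.4% ± 1.09 (adjusted p = 4.7e-07), and PNPLA1, from 86.6% ± 4.38 to 27.1% ± 4.85 (adjusted p = 2.6e-07). Of 7 genes listed under NADPH supply, not all of which need yield NADPH themselves, 5 were called lower, among them IDH2, a mitochondrial isocitrate dehydrogenase, from 12.2% ± 2.35 to 1.05% ± 0.455 (adjusted p = 6.0e-06). Of 12 genes of fatty acid synthesis and desaturation, 5 were called lower, among them THRSP, from 91.7% ± 1.40 to 45.1% ± 7.53 (adjusted p = 1.1e-05), and ACACB, an acetyl-CoA carboxylase, from 82.4% ± 2.93 to 44.9% ± 0.598 (adjusted p = 4.2e-06).

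Of 12 genes of triglyceride synthesis, 7 were called lower, among them MOGAT2, from 76.3% ± 3.31 to 36.0% ± 8.36 (adjusted p = 0.00012), and LPIN1, a phosphatidate phosphatase, from 21.6% ± 4.03 to 7.87% ± 1.64 (adjusted p = 0.00017). Of 13 genes of fatty acid oxidation, 6 were called lower, and CPT1B, the muscle form of the carnitine palmitoyltransferase, went from 93.6% ± 3.8 to 43.9% ± 4.17 (adjusted p = 1.7e-07). Of 12 genes of uptake and binding, 9 were called lower, among them CD36, a fatty acid receptor, from 91.5% ± 9.98 to 22.6% ± 12 (adjusted p = 3.2e-05), and FABP4, the fatty acid binding protein of fat cells, from 90.0% ± 3.79 to 25.2% ± 4.58 (adjusted p = 7.5e-07). Of 12 regulators, 8 were called lower, among them PPARD, from 28.1% ± 6.51 to 1.26% ± 0.380 (adjusted p = 1.0e-06), and NR1H3, from 40.2% ± 18 to 13.6% ± 3.47 (adjusted p = 0.0078), both nuclear receptors of lipids.

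**Figure D5:**
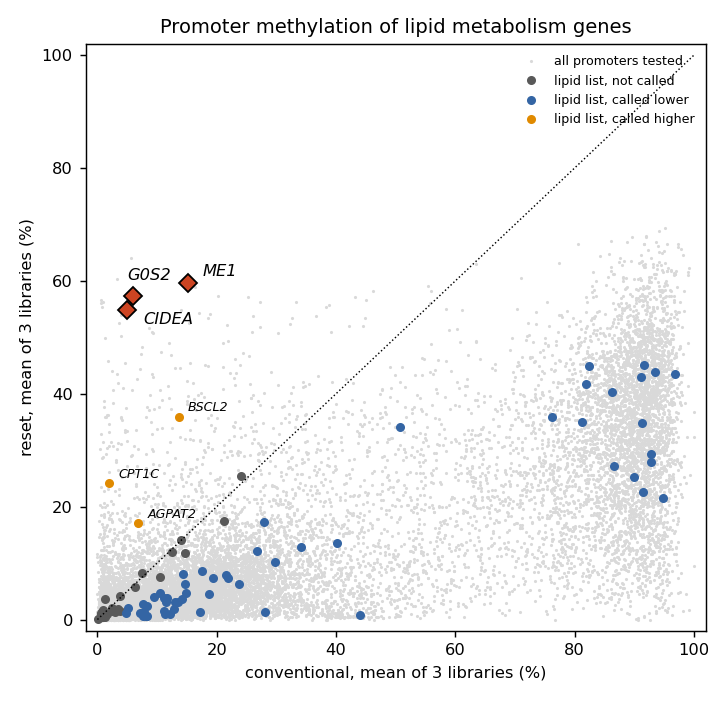
Promoter methylation level (%), mean of 3 reset libraries against mean of 3 conventional libraries, for all promoters tested (light grey), the 87 listed lipid metabolism genes by call (orange higher, blue lower, dark grey not called) and G0S2, CIDEA and ME1 (red diamonds); the dotted line marks equal levels. The 3 diamonds lie far above the line at 54.9 to 59.6%, the 3 orange points lie above it at 17 to 35.9%, and the blue points lie below it.

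The promoters with levels most like each gene over the 6 libraries were found by the root-mean-square difference in percentage points. This uses the levels that chose the genes and is a description. None was on the list of 87 other lipid genes, among 19300 promoters. Nothing is read from that, since the largest rise on the list was 22.3 points (BSCL2). For G0S2 the nearest promoters were HTR2C, a serotonin receptor (3.26 points), TBX4, a limb transcription factor (4.22 points), and NKX2-6, a homeobox gene (4.28 points). For CIDEA they were GSX2, a forebrain homeobox gene (4.60 points), SPOCK2, a secreted proteoglycan (4.88 points), and TBX4 (5.68 points). For ME1 they were DHRS4, a dehydrogenase (8.12 points), SPATC1L (10.2 points) and TMEM45B (10.4 points). The nearest matches of ME1 were further away than those of the other 2 genes, whose reset libraries were closer together.

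The size of the promoter rise depended on the bounds chosen. With 2000 bp before and 500 bp after the start taken as promoter, the rise was 34.2 points in G0S2, 41.1 in CIDEA and 24.6 in ME1. With 500 bp on both sides it was 55.1, 52.2 and 53.8 points.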

How the data were processed

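Whole-genome bisulfite libraries of H9 cells (3 conventional, 3 reset) were prepared from sonicated DNA. The submitters' processing notes name Trim Galore, Bowtie2 and Bismark 0.9.0 with GRCh37. The paper's methods name a different Bismark version. The authors deposited, for each CpG cytosine in each library, the counts of methylated and unmethylated calls and the percent methylated, with no normalization. Removal of duplicate reads is not given in the sources used here.

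Positions in the files are counted from 0 (99.8% then lie at a CpG) and are printed from 1. Calls of both strands were summed per CpG. Starts and exons came from GENCODE release 44 for GRCh37, and sequences from the same build. Promoters and bodies to which every library gave 10 or more calls were fitted with a quasi-binomial logistic model (likelihood-ratio F test, dispersion squeezed with limma 3.58.1 in R 4.3.3 and kept at 1 or more, Benjamini-Hochberg adjustment over all features, threshold 0.05). The fit was tested on simulated data. Other steps used Python 3.11.15, numpy 2.4.6, scipy 1.17.1 and matplotlib 3.10.9. CpG islands were predicted by merging 200-bp windows that reach 50% GC and exceed an observed to expected ratio of 0.6. No p is given for the promoters of G0S2, CIDEA and ME1, since these chose the genes.

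The members and gene lists were chosen with earlier results of these data known. Named besides them were the 3 promoters nearest in level, the nearest start on each side, the CIDE and malic enzyme families, every listed lipid promoter called higher, and in each group of the list the 2 largest differences among those called. A further promoter that this rule names is not reported here. Alternatives were other minimum depths, promoter and body bounds, a mean over CpGs, leaving out deeply covered CpGs (over 20 calls in a library), leaving out each library, and the replicate number as a block. Replicate numbers did not pair the libraries. Correlations were 0.00775, 0.0124 and 0.00981 between same-numbered libraries, and ran from -0.0166 to 0.00710 between libraries of different numbers.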

Additional observations from a re-analysis of the deposited data

How the results depend on the processing

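Under the alternatives run, no difference of G0S2, CIDEA or ME1 reversed, and the bodies of CIDEA and ME1 stayed called lower wherever fitted. For the promoters this is no support, since the genes were chosen by that difference. At their promoters and bodies the reset and conventional libraries did not overlap. Leaving out a library could therefore change the size of a difference but not its sign. With 2000 bp before and 500 bp after the start as promoter, the rise was 34.2 points in G0S2, 41.1 in CIDEA and 24.6 in ME1, and promoters called higher numbered 474 in place of 768. With 500 bp on both sides, promoters called lower numbered 7489 in place of 13004, and lipid list promoters called lower 27 in place of 55. With bodies from 3000 bp, bodies called higher numbered 118 in place of 220. With equal weight for each CpG, the CIDEA body differed by -34.7 points. Leaving out each library in turn gave rises of 48.1 to 53.2 points in G0S2, 46.7 to 52.4 in CIDEA and 36.1 to 53.6 in ME1, and body differences of 33.9 to 47.5 points in G0S2, -39.2 to -36.2 in CIDEA and -75.3 to -73.9 in ME1. It gave 648 to 717 promoters called higher and 12243 to 12630 lower, 207 to 213 bodies higher and 18716 to 18736 lower, and 3 to 4 lipid list promoters higher and 49 to 54 lower. Replicate numbers did not pair the libraries, and with the replicate number as a block 638 promoters were called higher and 12353 lower, 3 lipid list promoters higher and 53 lower, and 218 bodies higher and 18726 lower, with the bodies of CIDEA (adjusted p = 4.4e-11) and ME1 (adjusted p = 4.1e-17) still called lower. The G0S2 body could not be fitted with 20 calls in every library and has no part beyond 3000 bp. Depth limits single steps and CpGs most, and ME1 in reset library 1 (67 calls over the promoter).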
